A study of Arabidopsis thaliana with 28 samples.

Results

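Whole Arabidopsis thaliana seedlings of the aba2-1 mutant given 10 nM abscisic acid (ABA) were compared with aba2-1 seedlings given a mock solution, by RNA sequencing. The 6 samples, 3 of each kind, were taken by their labels from the 28 samples of the series, which fall into 10 groups. Both kinds of sample carry the same mutation, aba2-1, in ABA2, which encodes the short-chain dehydrogenase that turns xanthoxin into abscisic aldehyde late in ABA synthesis. The mutant is known to make little ABA rather than none, so the mock seedlings are low in ABA and not free of it. Per the labels' protocols, seedlings spent 7 days on plates of MS medium and 3 h in liquid MS medium with the ABA or the mock, and both groups carry the line label T3. Elsewhere the labels state 10 DAG for the seedlings; which of these ages is right was not resolved. The groups set beside them are aba2-1 given 50 nM ABA (n = 3), wild-type Col-0 given 10 nM ABA (n = 2) and wild-type Col-0 mock (n = 2), and Col-0 given 50 nM ABA (n = 3) is shown in a plot of dose; all were handled in the same way. Nothing in the labels says that replicates were separate cultures, so each p-value measures only the spread between replicate libraries, which may be technical. That spread was estimated over all 28 samples of the series, including the groups not described here.

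ABA is the hormone by which plants answer drought, cold and salt. The PYR/PYL receptors bind ABA and then block clade A PP2C phosphatases, which frees SnRK2 kinases to phosphorylate ABF and related bZIP factors. These factors bind short ABA-responsive elements (ABRE, with the core ACGTG) in the promoters of genes for dehydrins and other protective proteins. Receptor genes are known to fall and phosphatase genes to rise after ABA, and CYP707A enzymes break the hormone down.

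The libraries were of like size but not of like makeup. The 10 nM ABA libraries held 16776912, 16151539 and 17748473 reads and the mock libraries 17029748, 16618175 and 17314358. Ribosomal RNA loci took 6.298%, 4.237% and 75.18% of the reads in the 10 nM ABA libraries and 2.974%, 8.9% and 8.114% in the mock libraries. The third 10 nM ABA library therefore kept 4405167 other reads, against 15720249 and 15467265 in the other 10 nM ABA libraries and 15139228 to 16523351 in mock. In that library 10.58% of the other reads came from plastid genes, against 2.328% and 2.754% in the other 10 nM ABA libraries and 2% to 2.862% in mock. A single read in it was worth 4.4135 normalised counts, against 1.038 to 1.2068 in the other 5, so low genes were measured more coarsely there. Counts below are normalised read counts as deposited, meaning reads divided by 1 size factor per library. Where leaving out 1 library ended a call of a gene described below, the libraries and the adjusted p, or its range, are given. The labels give whole seedlings, and transcripts of tissue markers were found in both groups. RBCS1A, a Rubisco small subunit of green tissue, held 157500 to 188300 counts in 10 nM ABA and 176800 to 178200 in mock. SCR, a root and leaf endodermis regulator, held 1018 to 1077 in 10 nM ABA and 961.2 to 1078 in mock. Because SCR is not limited to roots, these genes alone do not show that roots were present.

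ABA2 was examined first. It held 195.3, 203.8 and 203 counts in 10 nM ABA libraries and 207.6, 185.9 and 205.3 in mock libraries (log2 difference 0.01, SE 0.10, adjusted p = 1). The groups overlapped. Since both groups carry the mutant allele, and Col-0 mock held 203.1 ± 24.9 (SD, n = 2), the level of this transcript checks nothing about the mutation.

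After 3 h of 10 nM ABA, transcripts of the dehydrin gene RAB18 and of several other stress-protein genes were higher. Of 173 leucine-rich repeat kinase and receptor genes, a family chosen after its values were seen, 8 were lower and 0 higher. Of these 8 calls, only those of AT1G05700 and AT5G49770 held in each fit that left out 1 library. Peroxidase and cell wall genes were called in both directions. On the log2(value + 1) scale of the test, the dehydrin gene RAB18 rose 14.1-fold, LEA4-5 rose 7.63-fold and the phi-class glutathione transferase gene GSTF14 fell to 0.267 of mock. In limma's test over 21023 genes, 205 passed a Benjamini-Hochberg adjusted p of 0.05, which is 0.975% of those tested. Of these, 106 were higher (0.504%) and 99 lower (0.471%) in 10 nM ABA, and 58 and 63 of them differed at least 2-fold. At an unadjusted p under 0.05 there were 1651 genes. Replicates of the groups did not overlap for 204 of the 205 called genes, where 14.3% of all tested genes had this property. The test used these same values, so this is not separate support for the calls. The median difference of all tested genes was -8.72e-05 on the log2 scale. The other tools run on the recovered reads gave 166 (edgeR, 87 higher and 79 lower) and 296 (DESeq2, 184 higher and 112 lower), and 158 genes passed with all 3 tools.

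**Figure D1:**
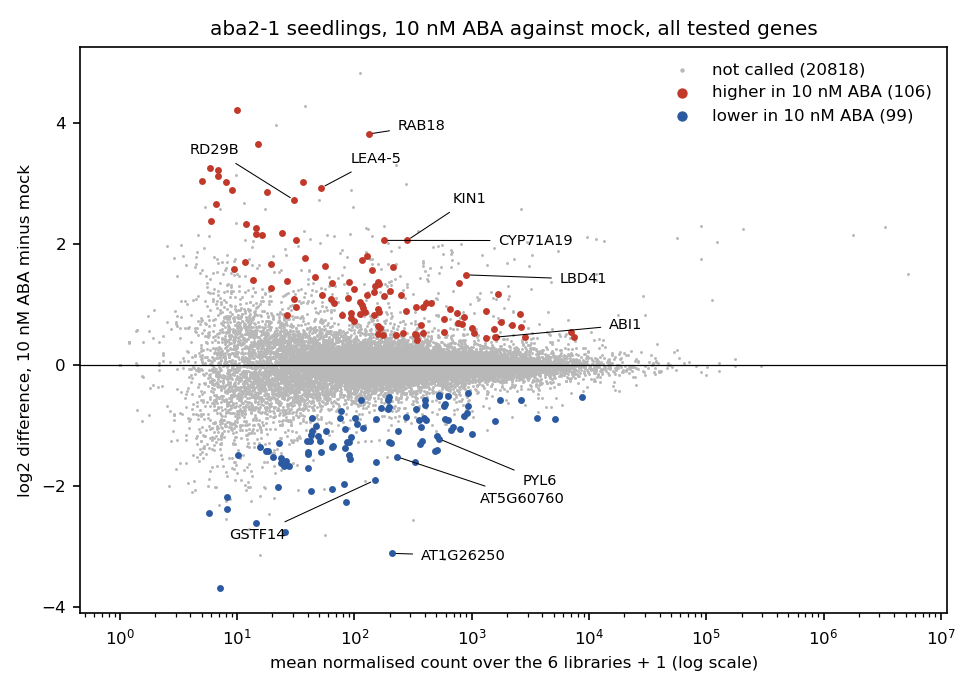
Each point is a tested gene, placed by its mean normalised count over the 6 libraries plus 1 (x, log scale) and its log2 difference, aba2-1 10 nM ABA minus aba2-1 mock (y). Red points are the 106 genes called higher and blue the 99 called lower; RAB18 lies at 3.82 and AT1G26250 at -3.11. Of the 14 genes above 10000 counts with a difference over 1, 6 are ribosomal RNA loci and 7 are other plastid or mitochondrial genes, and none passed the test.

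Most calls were also made without the library rich in ribosomal RNA, library 3 of 10 nM ABA. Without it 141 genes passed, and 124 of the 205 were among them. Leaving out each library in turn gave 99 to 150 called genes; the fewest, 99, 117 and 118, came without mock libraries 1, 2 and 3, and 128 were called without 10 nM ABA library 2. In all 6 such fits, 70 of the 205 genes passed, 40 higher and 30 lower.

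**Figure D2:**
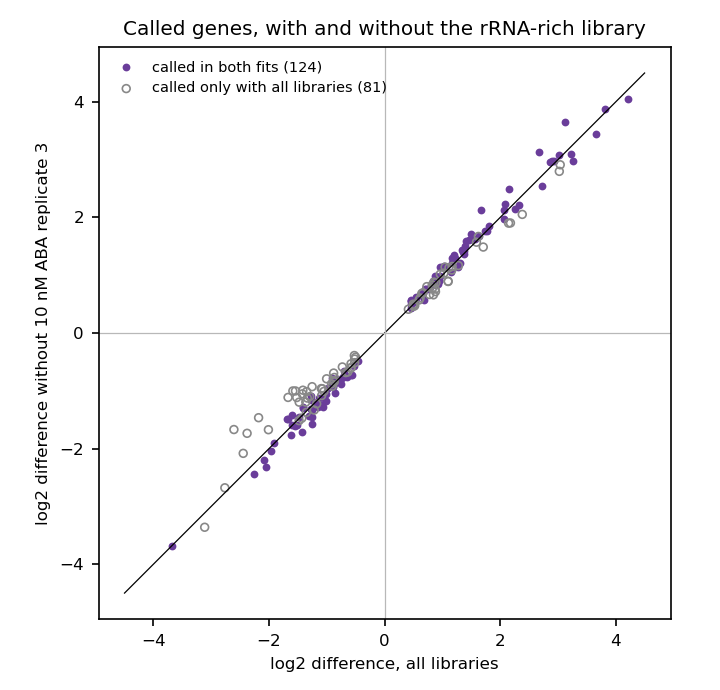
The 205 called genes are placed by their log2 difference with all libraries (x) and without the third 10 nM ABA library (y); the line marks equal values. Filled points are the 124 genes called in both fits and open points the 81 called only with all libraries.

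The genes known to be induced by ABA were the first group. Of 30 such genes, 29 passed the filter on low values; 10 were higher, where 0.504% of all tested genes were, 0 were lower and 19 did not pass the test. Their median difference was 1.08 on the log2 scale, and replicates were higher without overlap for 18 of them, where 7.28% of all tested genes were. Without 10 nM ABA library 3 the median was again 1.08 and 7 were higher.

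RAB18 (AT5G66400, chromosome 5, 26518277 to 26519447 in TAIR10.1, minus strand), a dehydrin gene used as a standard ABA reporter, held 318, 194.3 and 225.1 counts in 10 nM ABA and 13.49, 18.1 and 17.02 in mock. All 3 treated libraries were far above all 3 mock libraries, with a log2 difference of 3.82 (SE 0.25, adjusted p = 3.1e-09). Its locus overlaps AT5G66410 on the other strand, and the sources used here do not say whether reads were assigned by strand. LEA4-5 (AT5G06760, chromosome 5, 2089445 to 2090430), which encodes a late embryogenesis abundant (LEA) protein that protects drying cells, held 102.2, 85.32 and 83.86 counts in 10 nM ABA and 6.228, 18.1 and 11.34 in mock (log2 2.93, SE 0.36, adjusted p = 4.9e-05). RD29B (AT5G52300, chromosome 5, 21237021 to 21239531), a drought-inducible gene whose promoter is a textbook ABRE example, held 48.83, 40.29 and 66.2 in 10 nM ABA and 9.342, 7.241 and 4.538 in mock (log2 2.73, SE 0.42, adjusted p = 0.00078; 0.078 with limma-voom on recovered reads). For these genes as for RAB18 the lowest treated library was above the highest mock library. KIN1 (AT5G15960, chromosome 5, 5209717 to 5210826), a small cold- and ABA-induced gene, held 404.3, 546.3 and 410.5 counts in 10 nM ABA and 102.8, 102.6 and 115.7 in mock (log2 2.06, SE 0.24, adjusted p = 3.9e-05). Its neighbour KIN2 is a near copy, so reads may be split between them; KIN2 held 2176, 2344 and 2344 in 10 nM ABA and 1202, 1080 and 807.7 in mock (log2 1.17, adjusted p = 0.029). Both rose, KIN1 by the larger factor on this scale. The KIN2 call was lost whichever of the 6 libraries was left out, at adjusted p between 0.056 and 0.18.

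The remaining called members of this group were EM6, AT3G02480, P5CS1, HIS1-3 and LTP4. EM6, a seed LEA gene, held 17.03, 17.77 and 22.07 counts in 10 nM ABA and 3.114, 2.414 and 3.403 in mock (log2 2.33, adjusted p = 0.0045). AT3G02480, of the LEA family, held 39.72 to 57.92 in 10 nM ABA and 8.304 to 15.69 in mock (log2 2.08, adjusted p = 0.0051). P5CS1, the rate-limiting enzyme of proline synthesis, held 466.7, 450.3 and 432.5 in 10 nM ABA and 268.8, 282.4 and 298.3 in mock (log2 0.67, SE 0.10, adjusted p = 0.00071; overlapping AT2G39795). EM6 was the lowest of them, and all 3 calls held in each fit that left out 1 library. HIS1-3, a drought-induced linker histone gene, held 90.85, 155.2 and 114.8 in 10 nM ABA and 59.17, 47.07 and 55.59 in mock (log2 1.12, adjusted p = 0.020), a call lost when any library except 10 nM ABA library 1 was left out (adjusted p from 0.054 to 0.13). LTP4, a lipid-transfer protein gene, held 3.407, 11.85 and 8.827 in 10 nM ABA and was listed at 0 in all 3 mock libraries. The treated libraries held 3, 10 and 2 reads of LTP4, so only 10 nM ABA library 2 exceeded a floor of 3 reads per library. The treated mean was 2.38 times the mock floor, a ratio that leans on that library. The LTP4 call (adjusted p = 0.028) was lost when any library except 10 nM ABA library 1 was left out (adjusted p from 0.092 to 0.14).

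Several members known as strong ABA markers did not pass. RD29A held 3319, 3457 and 4166 counts in 10 nM ABA and 2909, 2440 and 1854 in mock (log2 0.62, adjusted p = 0.39). LTI30, a dehydrin gene, held 2950, 3696 and 3725 in 10 nM ABA and 1815, 2427 and 2035 in mock (log2 0.73, adjusted p = 0.054). In both genes the groups did not overlap. RD26, a stress NAC factor gene, held 293, 317.6 and 322.2 in 10 nM ABA and 262.6, 393.4 and 274.5 in mock, and the groups overlapped (log2 0.03, adjusted p = 1). TSPO, a membrane protein gene, spanned 13.24 to 33.18 in 10 nM ABA and 0 to 15.69 in mock, which overlap (log2 2.59, adjusted p = 0.066).

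The upstream sequence of some of these genes shows what an ABRE core looks like here. The 250 bases before the annotated start of the gene were read from the RefSeq TAIR10.1 assembly. They are printed 5′ to 3′ on the strand of the gene, and capitals mark ACGTG, or CACGT where it lies on the other strand; the palindrome CACGTG counts on both strands. RD29B (window chr5:21236771-21237020, plus strand) held 4 matches, the nearest beginning 10 bases before the start. LEA4-5 (chr5:2090431-2090680, minus strand) also held 4, the nearest at 53 bases. KIN1 (chr5:5209467-5209716, plus strand) held 1, at 150 bases. CYP71A19 (chr4:7740033-7740282, plus strand), a large rise, and AT5G60760 (chr5:24437828-24438077, plus strand), a large fall, are also shown and held 0. The called ABA markers P5CS1, HIS1-3 and LTP4, not printed, held 0 as well. EM6, AT3G02480 and KIN2, also not printed, held 3, 3 and 1.
RD29B: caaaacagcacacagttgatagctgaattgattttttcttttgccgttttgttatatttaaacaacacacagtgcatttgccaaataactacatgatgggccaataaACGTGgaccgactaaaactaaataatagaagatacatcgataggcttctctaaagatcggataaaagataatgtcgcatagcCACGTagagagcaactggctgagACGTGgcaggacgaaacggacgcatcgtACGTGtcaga
LEA4-5: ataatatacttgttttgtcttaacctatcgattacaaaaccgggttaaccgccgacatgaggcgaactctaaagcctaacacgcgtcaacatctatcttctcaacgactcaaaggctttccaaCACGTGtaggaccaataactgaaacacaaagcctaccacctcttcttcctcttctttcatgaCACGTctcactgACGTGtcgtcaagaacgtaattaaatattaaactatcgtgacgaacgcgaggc
KIN1: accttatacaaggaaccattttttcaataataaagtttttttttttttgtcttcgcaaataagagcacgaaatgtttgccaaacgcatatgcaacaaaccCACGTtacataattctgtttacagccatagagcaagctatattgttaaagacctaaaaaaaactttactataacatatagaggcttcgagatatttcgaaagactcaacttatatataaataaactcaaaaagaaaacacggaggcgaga
CYP71A19: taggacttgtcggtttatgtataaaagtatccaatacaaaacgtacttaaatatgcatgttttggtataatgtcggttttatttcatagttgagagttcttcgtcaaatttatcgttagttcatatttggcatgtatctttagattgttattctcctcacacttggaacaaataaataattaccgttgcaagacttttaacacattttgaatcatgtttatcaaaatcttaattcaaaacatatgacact
AT5G60760: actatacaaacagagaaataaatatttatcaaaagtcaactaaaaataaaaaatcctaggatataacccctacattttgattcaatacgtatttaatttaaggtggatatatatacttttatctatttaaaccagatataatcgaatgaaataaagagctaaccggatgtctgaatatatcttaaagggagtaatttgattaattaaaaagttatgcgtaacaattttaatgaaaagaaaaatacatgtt

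Over all called genes, ACGTG or CACGT stood in the 250-base window of 45 of 106 higher genes (42.5%), 28 of 99 lower genes (28.3%) and 4999 of 20849 tested nuclear genes with a full window (24%). The longer form ACGTGNC, searched on both strands and always containing the shorter one, stood in 20.8% of higher genes, 2.02% of lower genes and 9.53% of all. CCGAC, the core of the dehydration-responsive element bound by other factors, searched in the same way, stood in 20 of 106 higher genes, 10 of 99 lower genes and 2673 of all 20849. RAB18 itself held 3 matches of ACGTG in its window, which is not printed because it runs into AT5G66410. These shares describe letters in a window and are not tests of binding.

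The largest rises were taken among called genes without overlap between groups that average at least 5 CPM. CPM are counts scaled to library size, outside ribosomal RNA. Outside the textbook markers these rises were in genes of varied function. Rarer transcripts could rise more, as AT2G37870 did (log2 4.21, described below). CYP71A19 (AT4G13290, chromosome 4, 7740283 to 7743135), a cytochrome P450 gene, held 307.8, 228.7 and 322.2 counts in 10 nM ABA and 59.17, 72.41 and 70.33 in mock (log2 2.06, SE 0.22, adjusted p = 1.8e-05). It overlaps AT4G13300, so its counts are uncertain to that extent. PELPK2, a hydroxyproline-rich cell wall glycoprotein gene, held 165.8, 245.3 and 181 in 10 nM ABA and 52.94, 47.07 and 66.93 in mock (log2 1.80, adjusted p = 0.00015). ANNAT7, an annexin gene, the family that binds membrane lipids in the presence of calcium, held 198.7, 165.9 and 167.7 in 10 nM ABA and 46.71, 54.31 and 56.72 in mock (log2 1.74, adjusted p = 3.3e-05). In each of them all treated libraries lay above all mock libraries, as their choice required, and the calls held in every fit that left out 1 library. AT2G05510, of the glycine-rich protein family, held 179.4, 276.1 and 225.1 in 10 nM ABA and 102.8, 92.93 and 65.79 in mock (log2 1.37, adjusted p = 0.00031). TIP2;3, a vacuolar membrane aquaporin, held 231.7, 261.9 and 203 in 10 nM ABA and 77.85, 95.34 and 98.69 in mock (log2 1.35, adjusted p = 0.013). That call was lost without mock library 1 (adjusted p = 0.098) or 10 nM ABA library 2 (0.073).

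The remaining genes among the 15 largest rises chosen in this way had log2 differences between 1.2 and 1.62. AT3G45680, a major facilitator transporter gene (1.57), AT3G22620, of the lipid-transfer family (1.36, overlapping AT3G22630), LEP, an AP2/ERF transcription factor gene of leaf development (1.26), and AT4G36610, a hydrolase gene (1.22), held in all 6 fits. AT3G53980, of the lipid-transfer family, averaged 321.4 ± 25.4 in 10 nM ABA and 103.5 ± 5.74 in mock (SD, n = 3 each; log2 1.62, adjusted p = 0.040), and its call was lost whichever library was left out (adjusted p from 0.096 to 0.16). AT1G19900, related to glyoxal oxidases, averaged 205.7 ± 48.3 in 10 nM ABA and 87.52 ± 7.56 in mock (log2 1.2, adjusted p = 0.012), a call lost without mock library 1 (0.079) or 10 nM ABA library 2 (0.092). Of the 15 rises, 14 were still called without 10 nM ABA library 3; the exception was AT3G53980.

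The 15 largest falls, chosen in the same way, included genes of peroxidases, a receptor kinase and cell wall proteins. GSTF14 (AT1G49860, chromosome 1, 18458526 to 18459969) held 65.87, 56.88 and 61.79 counts in 10 nM ABA and 240.8, 249.8 and 209.9 in mock (log2 -1.91, SE 0.23, adjusted p = 4.9e-05). AT5G60760 (chromosome 5, 24438078 to 24442287), annotated as a P-loop nucleoside triphosphate hydrolase, held 124.9, 98.35 and 132.4 in 10 nM ABA and 371.6, 331.9 and 313.1 in mock (log2 -1.51, SE 0.17, adjusted p = 3.3e-05). AT1G11540, of the sulfite exporter family and overlapping AT1G11530, held 79.49, 90.06 and 57.38 in 10 nM ABA and 260.5, 229.3 and 200.8 in mock (log2 -1.61, SE 0.17, adjusted p = 1.8e-05). The highest treated library was below the lowest mock library in all 3 genes, as their choice required. AT1G05700, a leucine-rich repeat kinase gene, held 168.1, 158.8 and 158.9 in 10 nM ABA and 465, 485.1 and 526.4 in mock (log2 -1.60, adjusted p = 0.00019). The peroxidase genes AT1G05240 and AT1G05250 are near-identical neighbours that can share reads. AT1G05240 averaged 266.4 ± 39.8 in 10 nM ABA and 707.8 ± 60.3 in mock, and AT1G05250 averaged 274.3 ± 35.2 in 10 nM ABA and 728 ± 60.8 in mock (SD, n = 3 each; log2 -1.41 for both, adjusted p = 4.9e-05 and 0.00074).

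Other falls were of a cytokinin gene, a wall gene and a root hair gene. CYP735A2, the enzyme that makes trans-zeatin cytokinins, held 120.4, 109 and 123.6 counts in 10 nM ABA and 320.7, 217.2 and 339.2 in mock (log2 -1.28, adjusted p = 0.0070), a call lost without mock library 1 (adjusted p = 0.055) or 3 (0.056). XTH20, which remodels wall xyloglucan, held 169.2, 202.6 and 247.2 in 10 nM ABA and 586.5, 394.6 and 558.1 in mock (log2 -1.31, adjusted p = 0.0023). RHS13, a root hair specific gene, held 111.3, 135.1 and 97.1 in 10 nM ABA and 308.3, 266.7 and 253 in mock (log2 -1.27, adjusted p = 0.0059). None of these groups overlapped, as the choice of the genes required. AT2G02630, which overlaps AT2G02635, and AT2G02680, both of the Cys/His-rich C1 domain family, fell by 1.56 and 1.25 on the log2 scale, and AT4G15390, an acyltransferase gene, fell by 1.17. CYP51G2, which has no product in the annotation used here, fell by 1.2 (adjusted p = 0.0072), a call lost without 10 nM ABA library 2 (0.054). AT1G26250, an extensin-like cell wall gene that overlaps AT1G26255, had the largest of these 15 falls, with 68.14, 16.59 and 57.38 in 10 nM ABA and 396.5, 446.5 and 257.5 in mock (log2 -3.11, SE 0.74, adjusted p = 0.045). Its call was lost whichever library was left out (adjusted p from 0.055 to 0.21), and of the 15 falls, 13 were still called without 10 nM ABA library 3, the exceptions being AT1G26250 and PYL6. Because whole seedlings were used, fewer cells of a type and less RNA per cell cannot be told apart.

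**Figure D3:**
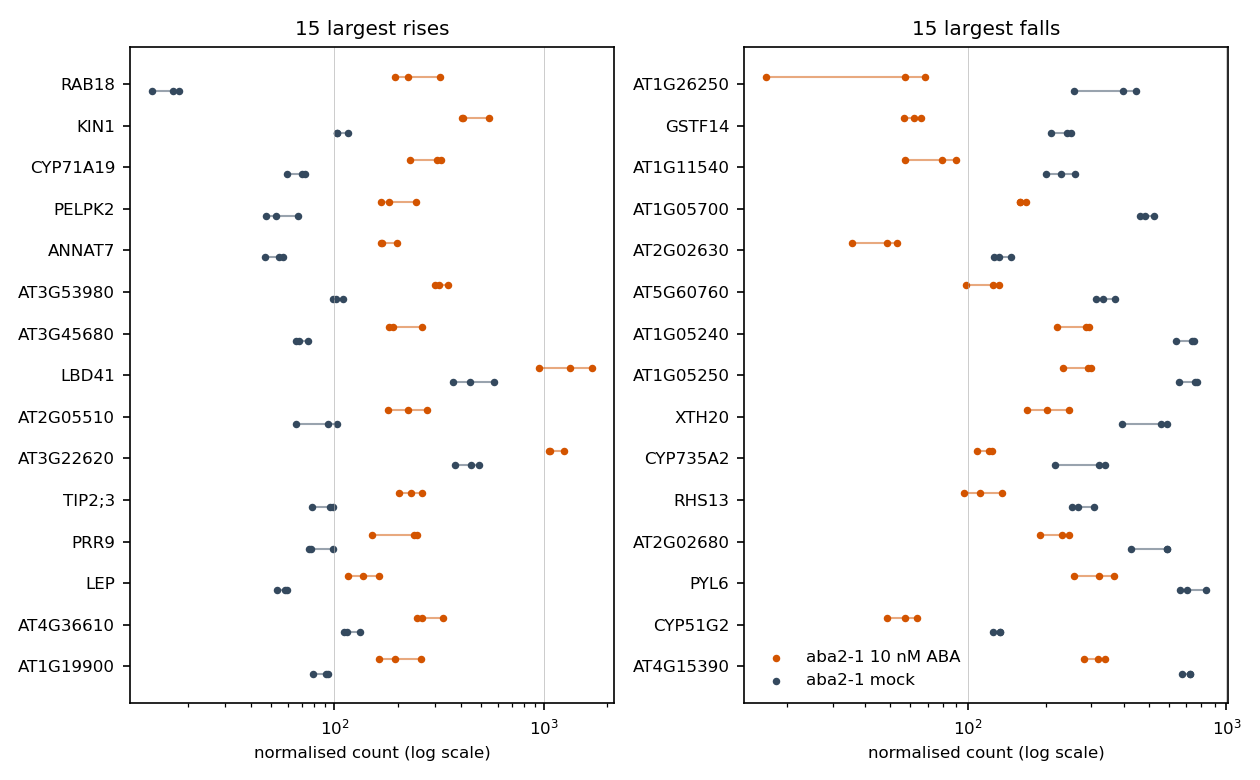
Normalised counts (x, log scale) of the 15 largest rises (left) and the 15 largest falls (right) among called genes of at least 5 CPM whose groups do not overlap, 1 point per library, with orange for aba2-1 10 nM ABA above dark blue for aba2-1 mock in each gene and lines spanning each group. The absence of overlap is part of how these genes were chosen; RAB18 has the largest log2 difference on the left, 3.82.

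Of the core ABA signalling lists, the receptors held 1 call among 9 tested genes and the clade A phosphatases 2 among 7. The SnRK2 kinases held 0 among 10, and the bZIP factors with their AFP partners 1 among 11. Of all tested genes, 0.975% were called. Among the PYR/PYL receptors, 14 genes were listed, 12 were in the table, 9 passed the filter, and PYL6 alone passed the test, lower. The median of the 9 was -0.22, and 5 of them were lower and 0 higher without overlap, where 7.05% of tested genes were lower in this way. PYL6 (AT2G40330) held 257.8, 322.3 and 366.3 counts in 10 nM ABA and 834.5, 658.9 and 701.1 in mock (log2 -1.22, SE 0.30, adjusted p = 0.045), and the call was lost whichever library was left out (adjusted p from 0.072 to 0.23). The table also holds another row named for PYL6 with the suffix CA, as the PYL6 CA seedlings of the series are, and reads can be divided between both rows. Their sum was 544, 767.9 and 542.9 in 10 nM ABA and 1159, 1186 and 1180 in mock, again without overlap. PYR1 held 876.7, 921.9 and 1059 in 10 nM ABA and 1602, 1402 and 1584 in mock (log2 -0.68, adjusted p = 0.42), and with its CA row 1742, 2142 and 1827 in 10 nM ABA and 2332, 2604 and 2677 in mock. PYL5 held 1467, 1915 and 1421 in 10 nM ABA and 2389, 2655 and 2343 in mock (log2 -0.63, adjusted p = 0.11), but with its CA row it averaged 2466 ± 471 in 10 nM ABA and 3037 ± 431 in mock, and the groups overlapped. PYL4 held 3057, 4099 and 3169 in 10 nM ABA and 4188, 4130 and 4247 in mock (log2 -0.30, adjusted p = 0.55). PYL1, PYL2, PYL7, PYL8 and PYL9 lay between -0.22 and 0.06 on the log2 scale, none called. PYL3, PYL11 and PYL12 held at most 4.414 counts in any of the 6 libraries and were not tested, and PYL10 and PYL13 were not analysed here.

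The clade A PP2C phosphatases, the co-receptors that ABA switches off, held 2 calls, both higher. Of 9 genes 7 were tested, 2 were higher and 0 lower, with a median of 0.39, where 0.504% of all tested genes were called higher and 0.471% lower. Replicates were higher without overlap for 5 of the 7, against 7.28% of all tested genes. ABI1 held 1728, 1834 and 1871 counts in 10 nM ABA and 1241, 1337 and 1374 in mock (log2 0.46, SE 0.09, adjusted p = 0.0081; overlapping AT4G26070), and the call was lost without mock library 1 (adjusted p = 0.067). HAI1 held 28.39, 14.22 and 13.24 in 10 nM ABA and 3.114, 9.655 and 6.806 in mock (log2 1.41, adjusted p = 0.038); its call was lost without mock library 1 (0.30) or 3 (0.087) or 10 nM ABA library 1 (0.21) or 2 (0.061). PP2CA, the gene of another member, held 236.2, 241.7 and 238.3 in 10 nM ABA and 149.5, 187.1 and 215.5 in mock without passing (log2 0.39, adjusted p = 0.45). The SnRK2 kinases, which act below the phosphatases, had 10 of 10 tested, 0 called in either direction and a median of 0.17; the smallest p was that of SNRK2.5, at 487.2, 735.9 and 419.3 in 10 nM ABA and 343.6, 308.9 and 442.4 in mock, with overlapping groups (log2 0.56, adjusted p = 0.37).

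Among the bZIP factors of the pathway and their AFP partners, 11 of 14 were tested. ABF3 was the single call, higher, where 0.504% of all tested genes were called higher. The median was 0.23. Replicates were higher without overlap for 5 and lower for 1, where 7.28% and 7.05% of all tested genes were. ABF3 held 1264, 1294 and 1178 counts in 10 nM ABA and 804.4, 862.9 and 920 in mock (log2 0.53, SE 0.11, adjusted p = 0.017; overlapping AT4G34020). The call was lost without mock library 1 (adjusted p = 0.12) or 2 (0.064) or 10 nM ABA library 1 (0.062) or 2 (0.078). ABF1 held 256.7, 251.2 and 256 in 10 nM ABA and 178.5, 188.3 and 190.6 in mock (log2 0.45, adjusted p = 0.094). ABI5, a seed and seedling bZIP factor, held 57.38 to 68.14 in 10 nM ABA and 43.6 to 70 in mock, which overlap (log2 0.18, adjusted p = 1).

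Among genes that make and remove the hormone 1 was called. Of 10 synthesis genes, 6 were tested and 0 called, with a median of -0.02. NCED3, the rate-limiting step under drought, held 80.63, 63.99 and 66.2 counts in 10 nM ABA and 22.84, 39.83 and 40.84 in mock without overlap (log2 1.04, SE 0.27), but did not pass (adjusted p = 0.062). In breakdown, conjugation and transport, 13 of 13 were tested and 1 was called higher, where 0.504% of all tested genes were. The median was 0.08. CYP707A1, an ABA 8′-hydroxylase, held 182.8, 209.7 and 229.5 in 10 nM ABA and 103.8, 95.34 and 128.2 in mock (log2 0.93, SE 0.18, adjusted p = 0.0067), a call lost without mock library 2 (adjusted p = 0.056). CYP707A3, another hydroxylase, held 571.2 to 637.5 in 10 nM ABA and 441.1 to 491.2 in mock (log2 0.38, adjusted p = 0.59).

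**Figure D4:**
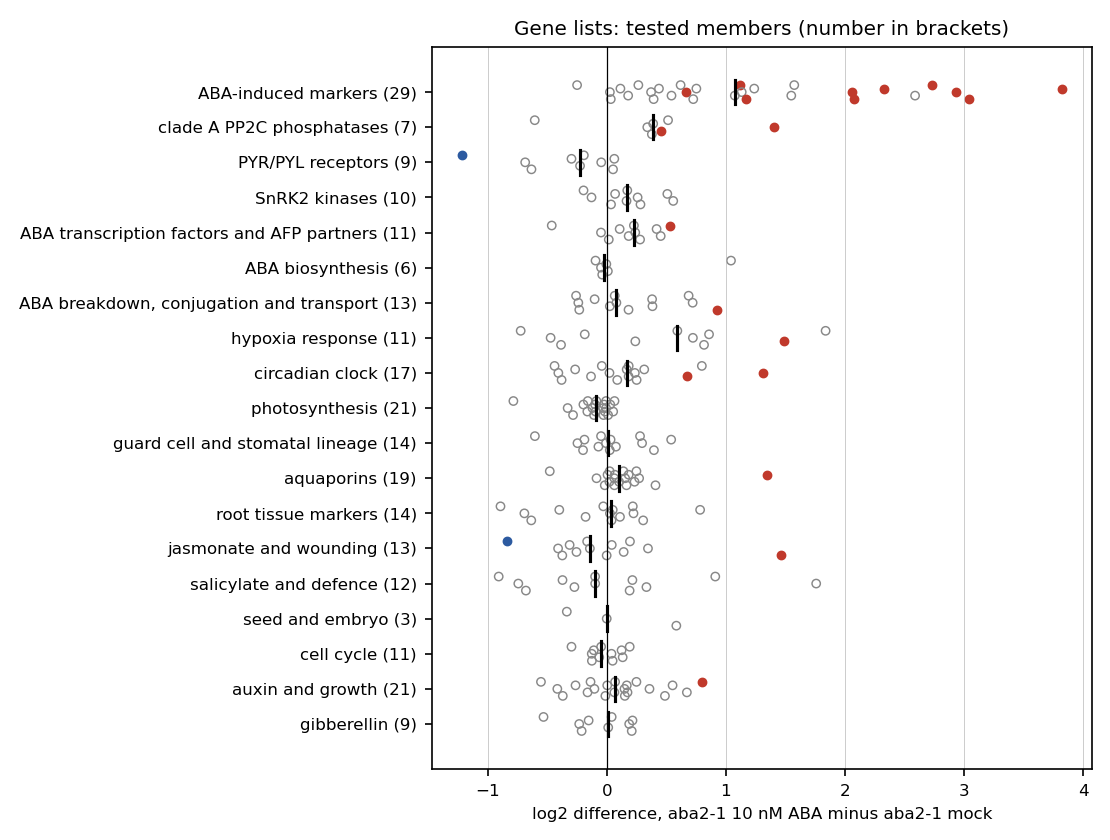
Log2 difference, aba2-1 10 nM ABA minus aba2-1 mock (x), of the tested members of 19 gene lists (rows, number tested in brackets). Red and blue points are members called higher and lower, open points were not called, and black bars are list medians; the ABA-induced markers have the highest median, 1.08.

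Calls in the lists outside the ABA pathway are to be read against the 0.504% of all tested genes called higher and 0.471% called lower. Of 11 hypoxia genes 1 was higher and 0 lower, with a median of 0.59; replicates were higher without overlap for 5 and lower for 2, where 7.28% and 7.05% of all tested genes were. LBD41, a transcription factor gene of the low-oxygen response, held 1323, 1690 and 944.5 counts in 10 nM ABA and 579.2, 369.3 and 441.3 in mock (log2 1.49, SE 0.29, adjusted p = 0.0072), a call lost without mock library 2 (adjusted p = 0.058) or 10 nM ABA library 2 (0.062). The members did not share a direction: PDC1, of ethanol fermentation, held 255.5 to 280.8 in 10 nM ABA and 109.8 to 182.6 in mock (log2 0.82, adjusted p = 0.096), and HRE1, a low-oxygen ERF gene, held 149.9 to 225.1 in 10 nM ABA and 241.6 to 282.4 in mock (log2 -0.38, adjusted p = 0.80). Of 17 clock genes 2 were higher and 0 lower (0.504% and 0.471% of all genes), with a median of 0.17; without overlap 5 were higher and 3 lower. PRR9, a pseudo-response regulator that represses morning genes, held 248.7, 151.7 and 238.3 in 10 nM ABA and 75.77, 98.96 and 77.14 in mock (log2 1.31, SE 0.19, adjusted p = 0.00036), and the call held in all 6 fits. GI, a flowering and clock gene, held 985.7, 887.6 and 1152 in 10 nM ABA and 561.5, 709.6 and 620.5 in mock (log2 0.67, adjusted p = 0.0058), lost without mock library 1 (adjusted p = 0.059). LHY, the morning clock gene, held 634.8, 596 and 772.4 in 10 nM ABA and 827.3, 948.6 and 926.8 in mock without passing (log2 -0.44, adjusted p = 0.22).

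In the jasmonate and wounding list 1 of 13 tested genes was higher and 1 lower, where 0.504% and 0.471% of all tested genes were. The median was -0.14. Replicates were higher without overlap for 1 and lower for 4, where 7.28% and 7.05% of all tested genes were. VSP2, a vegetative storage protein gene, held 77.22, 67.54 and 52.96 counts in 10 nM ABA and 35.29, 16.9 and 20.42 in mock (log2 1.46, SE 0.31, adjusted p = 0.019). That call was lost without mock library 2 (adjusted p = 0.13) or 3 (0.094) or 10 nM ABA library 1 (0.087) or 2 (0.071). AOC1, an allene oxide cyclase of jasmonate synthesis, held 710.9, 565.2 and 587 in 10 nM ABA and 1275, 1051 and 1008 in mock (log2 -0.84, SE 0.14, adjusted p = 0.0023), and this call held in all 6 fits. The growth list had 1 higher of 21 tested: EXPA16, a wall-loosening expansin gene, held 1136, 1083 and 1081 in 10 nM ABA and 577.1, 642 and 679.5 in mock (log2 0.80, SE 0.10, adjusted p = 1e-04). All treated libraries of EXPA16 lay above all mock libraries, and it was called in all 6 fits. Of 19 aquaporins, TIP2;3 described above was the only call, and the median was 0.10.

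Lists that mark tissues and cell types showed 0 calls in either direction. For photosynthesis (21 tested, median -0.09), summed counts were 1202000 to 1483000 in 10 nM ABA and 1310000 to 1490000 in mock. For guard cells and the stomatal lineage (14 tested, median 0.01) they were 2941 to 3288 in 10 nM ABA and 3069 to 3126 in mock, and for root tissues (14 tested, median 0.03) 3994 to 4343 in 10 nM ABA and 4190 to 4454 in mock; no member of these 3 lists was at 0 in all 6 libraries. The summed levels thus overlapped between the groups. The smallest p in each list belonged to RBCS1B, which averaged 2700 ± 293 in 10 nM ABA and 4659 ± 663 in mock (log2 -0.78, adjusted p = 0.27), to the guard cell potassium channel gene GORK (log2 0.54, adjusted p = 0.53), and to the root hair regulator RSL4 (log2 0.78, adjusted p = 0.20). GORK stood at 158.9 in 10 nM ABA library 3 against 72.68 and 77.02 in the other treated libraries. RSL4 was called without 10 nM ABA library 1 (adjusted p = 0.021). The salicylate (12 tested, median -0.10), cell cycle (11, -0.05), gibberellin (9, 0.01) and seed (3, 0) lists also had 0 calls with all libraries. Without 10 nM ABA library 3, the salicylate list had 1, PR1, a pathogenesis-related protein gene that held 18.17, 13.03 and 0 counts in 10 nM ABA and 1.038, 2.414 and 0 in mock (adjusted p = 0.66 with all libraries and 0.047 without that one). With all libraries, the smallest p in these 4 lists belonged to WRKY70 (adjusted p = 0.53), CYCB1;4 (0.74), GA20OX2 (0.73) and OLEO2 (1), an oil body gene with reads in only 1 of the 6 libraries.

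Some transcripts were listed in only 1 of the groups. AT2G37870, of the lipid-transfer family, held 14.76, 16.59 and 22.07 counts in 10 nM ABA and was listed at 0 in all 3 mock libraries, at least 5.27-fold higher against a floor of 3 reads per library. AT5G24080, a protein kinase gene that overlaps AT5G03685, held 12.49, 3.555 and 13.24 in 10 nM ABA and was at 0 in mock. Its treated mean was 2.89 times the mock floor. A single read was worth 1.185 counts in 10 nM ABA library 2 and 4.4135 in library 3, so both values were close to the floor. AT1G33840, of the LURP-one family, was at 0 in all 10 nM ABA libraries and held 16.61, 10.86 and 9.075 in mock, at least 1.81-fold lower; that bound is loose because 3 reads weigh most in the ribosomal-RNA-rich library. All 3 passed the test, also in each fit that left out 1 library, and are named here, after their values were seen, for their zeros; the floors cover counting error only. Low levels were common among the calls, 83 of the 205 averaging under 5 CPM.

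Seedlings given 50 nM ABA for the same time place the 10 nM response on a dose series. RAB18 averaged 16.2 ± 2.41 counts in mock, 245.8 ± 64.4 at 10 nM and 1121 ± 337 at 50 nM (SD, n = 3 each), and RD29B averaged 7.04 ± 2.41, 51.77 ± 13.2 and 257.3 ± 26.6. Both were higher at 50 than at 10 nM (log2 2.18, adjusted p = 1.2e-05, and 2.32, adjusted p = 0.0015). ANNAT7 averaged 52.58 ± 5.22 in mock, 177.4 ± 18.5 at 10 nM and 215.4 ± 34 at 50 nM, and the difference between the doses did not pass (log2 0.27, adjusted p = 0.34). LBD41 averaged 463.3 ± 107, 1319 ± 373 and 1126 ± 322 over the same doses, again with no called difference between 50 and 10 nM (log2 -0.23, adjusted p = 0.59). Genes averaging at least 5 CPM over the samples of both doses were ranked by p between the doses. The 5 with the smallest p were AT2G43140, a bHLH factor gene (log2 -1.99), PYL4 (-1.56), ATHB7, a homeobox gene of the ABA response (2.08), AT4G21870, a small heat shock type chaperone gene (-2.55), and AT1G16850, an uncharacterised gene (2.06). None of these 5 was called between 10 nM and mock, where their log2 differences were -0.41, -0.30, 0.37, -0.81 and 0.58. In all, 2430 genes (11.6%) were called between 50 and 10 nM, 1279 higher (6.08%) and 1151 lower (5.47%) at 50 nM. Between 50 nM and mock 5210 (24.8%) were called, 2660 higher (12.7%) and 2550 lower (12.1%). The 50 nM replicates had a median SD per gene of 0.326 on the log2 scale against 0.167 at 10 nM and 0.146 in mock, and 6 genes passed between the doses when these 2 groups alone set the spread. The count between the doses was 485 without 50 nM library 2, 8230 without 50 nM library 3, 1566 without 50 nM library 1, and 1114, 939 and 1178 without 10 nM libraries 1, 2 and 3.

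Wild-type Col-0 given the same 10 nM dose allowed a test of whether the response differed between the genotypes. In Col-0, 6 genes (0.0285%) were called between 10 nM ABA and mock in limma's test, all higher, and 818 had an unadjusted p under 0.05. The difference between both responses was called for 0 of 21023 genes in limma and in edgeR and for 3 in DESeq2, and 654 genes had an unadjusted p under 0.05. For AT3G43990 and AT3G45240, which are 2 of these 3, the differences DESeq2 fitted were 24.06 and 24.75 on the log2 scale, which are too large to be read as measured changes. AT3G43990 held 534 counts in 10 nM ABA library 3 of aba2-1 and at most 4.827 in the other libraries of the 4 groups. AT3G45240 was at 0 in both Col-0 10 nM ABA libraries and in aba2-1 mock libraries 1 and 2, but at 179.2 in aba2-1 mock library 3. RAB18 averaged 245.8 ± 64.4 in aba2-1 10 nM ABA and 16.2 ± 2.41 in aba2-1 mock, beside 274.3 ± 35.3 in Col-0 10 nM ABA and 24.24 ± 11.1 in Col-0 mock (n = 2 for Col-0). Its response differed by 0.31 on the log2 scale between the genotypes, with a 95% interval of -0.52 to 1.13. For PRR9 the difference was -0.29 (interval -0.90 to 0.32), for EXPA16 0.06 (-0.28 to 0.39) and for GI 0.00 (-0.41 to 0.41). The smallest p was that of AT5G60760, at 118.6 ± 17.9 in aba2-1 10 nM ABA and 338.9 ± 29.9 in aba2-1 mock, beside 100.3 ± 11.6 in Col-0 10 nM ABA and 102.6 ± 0.264 in Col-0 mock (difference of responses -1.48, interval -2.04 to -0.91, adjusted p = 0.33). Among genes averaging at least 5 CPM over the samples of the 4 groups, CYP71A19 was next (1.66, interval 0.94 to 2.38, adjusted p = 0.45). PLA2A, a lipase gene (-1.94), and the glycosyltransferase family genes UGT76E12 (-2.17) and AT2G36770 (-2.08) followed (adjusted p = 0.47 for each). KIN1 had a difference of 1.60 (interval 0.81 to 2.38, adjusted p = 0.48). AT5G60760, CYP71A19 and KIN1 were among those called when the 4 groups alone set the spread, where 6 genes passed, and AT5G60760 also with DESeq2. The unadjusted intervals of these genes leave out 0, and none passed the correction over all genes in the fit of 28 samples.

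Treated aba2-1 was also set against Col-0 mock, for 6 of the named genes. Between aba2-1 mock and Col-0 mock 124 genes (0.59%) were called, 65 higher (0.309%) and 59 lower (0.281%) in aba2-1. CYP71A19 averaged 286.2 ± 50.3 in aba2-1 10 nM ABA, 67.3 ± 7.12 in aba2-1 mock and 379.2 ± 21.2 in Col-0 mock, and it was called between aba2-1 mock and Col-0 mock (log2 -2.48, adjusted p = 4.5e-06) but not between treated aba2-1 and Col-0 mock (log2 -0.42, adjusted p = 0.52). KIN1 averaged 453.7 ± 80.3 in aba2-1 10 nM ABA, 107 ± 7.53 in aba2-1 mock and 575.5 ± 112 in Col-0 mock (treated aba2-1 against Col-0 mock log2 -0.34, adjusted p = 0.67; aba2-1 mock against Col-0 mock log2 -2.41, adjusted p = 2.2e-05). GSTF14 averaged 61.51 ± 4.5 in aba2-1 10 nM ABA, 233.5 ± 21 in aba2-1 mock and 72.09 ± 3.26 in Col-0 mock (log2 -0.23, adjusted p = 0.81, for treated aba2-1 and log2 1.68, adjusted p = 0.00087, for aba2-1 mock, each against Col-0 mock). For these genes the mutant's mock level lay apart from the wild type's. AT2G05510 averaged 226.9 ± 48.4 in aba2-1 10 nM ABA, 87.16 ± 19.1 in aba2-1 mock and 480 ± 64 in Col-0 mock, and the treated mutant lay below the wild type (log2 -1.09, adjusted p = 0.0076). RAB18 lay above the wild type, at 245.8 ± 64.4 in aba2-1 10 nM ABA, 16.2 ± 2.41 in aba2-1 mock and 24.24 ± 11.1 in Col-0 mock (log2 3.33 for treated aba2-1 against Col-0 mock, adjusted p = 2.7e-07). PRR9 did likewise, at 212.9 ± 53.3 in aba2-1 10 nM ABA, 83.96 ± 13 in aba2-1 mock and 65.06 ± 18.7 in Col-0 mock (log2 1.69 for treated aba2-1 against Col-0 mock, adjusted p = 0.00011). Across all genes, 337 (1.6%) were called between aba2-1 10 nM ABA and Col-0 mock, 192 higher (0.913%) and 145 lower (0.69%) in the treated mutant. These comparisons share the treated libraries or the mock libraries with the main one and are not independent of it, and a p above the threshold does not show that levels were equal.

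**Figure D5:**
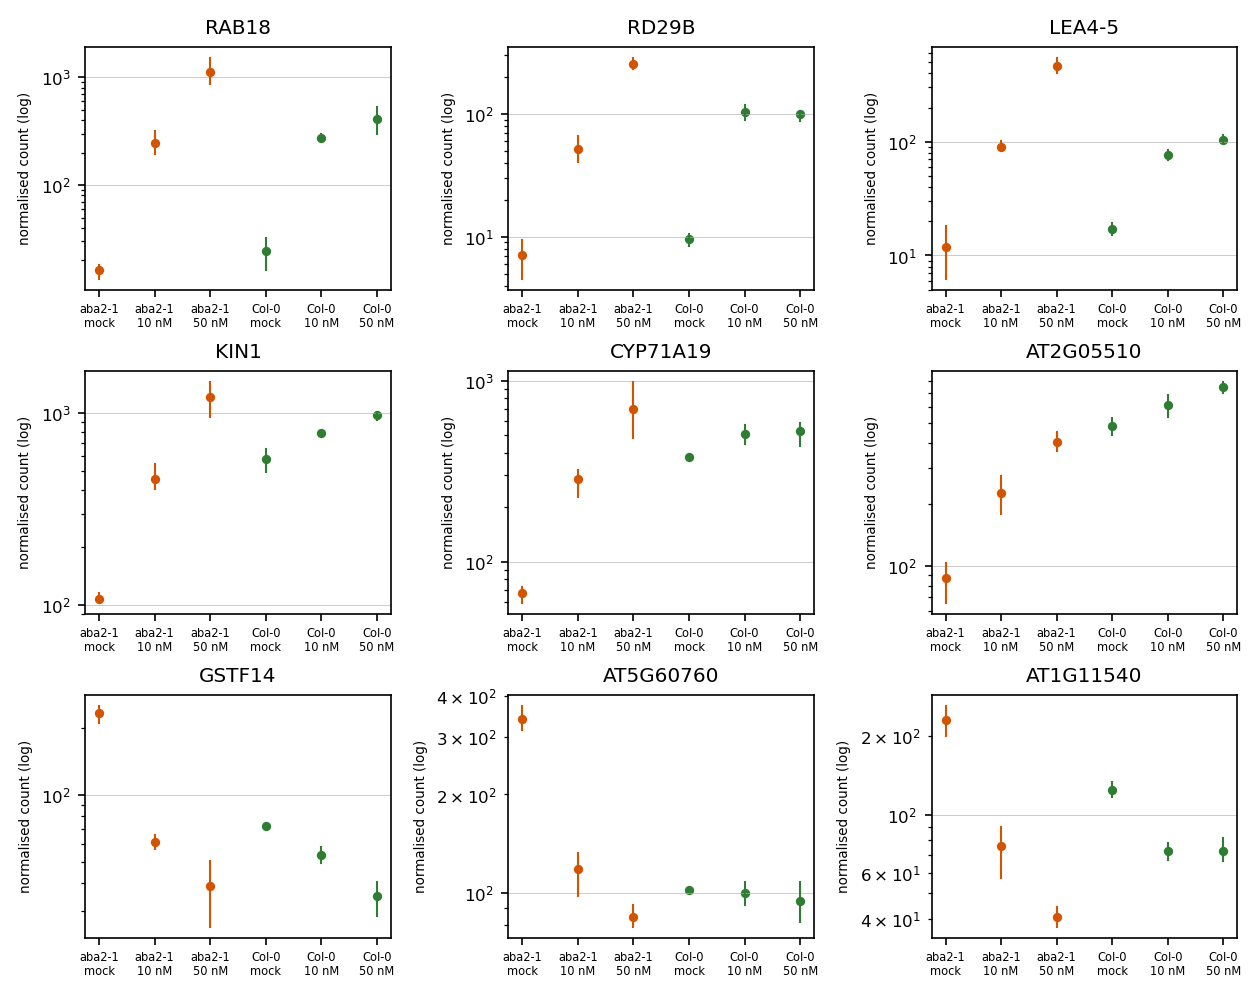
Mean normalised counts (points, log scale) with the lowest and highest library (lines) for 9 genes, in aba2-1 at mock, 10 nM and 50 nM ABA (orange, n = 3 each) and in Col-0 at the same doses (green, n = 2, 2 and 3). RAB18, RD29B and LEA4-5 average under 25 in the mock seedlings of both genotypes, whereas mock levels of KIN1, CYP71A19 and AT2G05510 are lower, and those of GSTF14, AT5G60760 and AT1G11540 higher, in aba2-1 than in Col-0.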

How the data were processed

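RNA of whole seedlings was sequenced on a NextSeq 500 from stranded libraries (labels' protocols). Salmon 1.3.0, edgeR 3.28.0, Trimmomatic 0.38 and TAIR10 are named, without roles, in the submitters' processing notes; whether counting used strand is not given in the sources used here. The authors deposited 1 table of gene-level signal with 23686 rows. Each deposited signal value equals reads over the size factor of its sample: 100% of values were whole multiples of the step of their column (tolerance 0.01 read), and the steps equalled median-of-ratios factors within 5.33e-09%. Multiplying out gave 11989417 to 30942766 reads per sample. Of the rows, 23681 carried a locus and 5 did not; the 5 were described only. Positions and sequences came from NCBI RefSeq TAIR10.1, in which 23457 loci were found.

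The values are not raw counts, so limma 3.58.1 (R 4.3.3; intensity trend, robust) was applied to log2(value + 1) for 21023 loci with at least 10 in at least 2 samples, all 28 samples in 1 fit and 10 group means. Adjusted p is Benjamini-Hochberg over all 21023 loci within a comparison. Folds and log2 differences are on the log2(value + 1) scale and understate changes of low genes; SE is of that difference, intervals are 95% and unadjusted. edgeR 4.0.16 and DESeq2 1.42.0 ran on the recovered reads as alternatives. The scripts were checked on simulated reads. Replicates differed beyond sampling noise (chi-square per degree of freedom 6.528 to 87.81) and none was merged.

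Named genes are ABA2, the 14 receptors, every called list member and the smallest p in each list without a call. The 15 largest rises and falls are named among called genes averaging at least 5 CPM without ribosomal RNA whose replicates do not overlap. The 5 smallest p between doses and in the interaction are named among genes averaging at least 5 CPM over the samples compared. Others named were chosen after their values were seen. The 19 lists hold 273 genes, of which 5 were not analysed and 18 fell below the filter. The comparison, members and lists were chosen with earlier results of these data known.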

Additional observations from a re-analysis of the deposited data

Results flagged for a closer look

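The unlocated row MCCA-NOS, which belongs to no annotated locus and was kept out of the tests, held 5.925 normalised counts (5 reads) in aba2-1 10 nM ABA library 2 and 0 in the other 10 nM ABA libraries and in all 3 aba2-1 mock libraries. It was singled out because it gives signal outside the genes tested, above the mock libraries. In aba2-1 50 nM ABA it held 139.9, 34.05 and 5.323 counts. Its source was not tested.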

How the results depend on the processing

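The 205 calls between aba2-1 10 nM ABA and mock became 207 and 202 with pseudocounts of 0.5 and 5, 219 without the filter, 198 with a stricter one, 166 with edgeR, 296 with DESeq2, 208 with factors computed without ribosomal RNA and 183 when only the groups compared were fitted. Sample weights, whose estimation stopped before it converged, gave 925 and, added after the data were seen, voom gave 128. Leaving out each library gave 99 to 150; for the interaction it gave 0 to 0, a lone Col-0 sample being assumed to vary like the other groups, and for 50 against 10 nM 485 to 8230, the lowest without 50 nM library 2 and the highest without 50 nM library 3. The interaction was called for 3 genes with DESeq2 and for 6 when only its groups were fitted. For 50 against 10 nM, 2430 became 6 when only those groups were fitted and 1132 with voom. The cause of these shifts was not tested. Called list members were 22, and 19 without 10 nM ABA library 3, of which 18 were among the 22 and 1, PR1, was not. Of the 46 named calls none changed direction under these alternatives. With edgeR 3 did not pass (AT1G26250, LTP4 and HAI1), with voom these and AT3G53980, RD29B, AT3G02480, HIS1-3, CYP707A1 and VSP2 (9), and without 1 library 6 to 13. With a pseudocount of 5, 2 did not pass (LTP4 and HAI1), and with only the groups compared 4 (LBD41, AT1G26250, HAI1 and VSP2). Same-numbered replicates had correlations of deviations of -0.0533, -0.043 and -0.225, and differently numbered ones ran from -0.229 to 0.279. Deviations from means of 3 libraries cannot settle whether same-numbered samples were prepared together. The replicate block gave 197 calls, where 4 named calls did not pass (AT3G53980, AT1G26250, PYL6 and HAI1). In a fit of the 6 samples, a setting added after the data were seen, the block gave 109 calls, where 11 did not (LBD41, PRR9, AT1G26250, EM6, P5CS1, HIS1-3, ABI1, HAI1, ABF3, GI and VSP2). The depth of 10 nM ABA library 3, where 1 read is worth 4.4135 counts, limits what could be seen among low genes.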

Other observations

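Further gene families are described here, chosen after their values were seen and counted from the annotated product names. Of 68 tested LEA and dehydrin genes, 8 were higher and 0 lower in 10 nM ABA, which is 11.8% called against 0.975% of all genes. LEA7, a LEA gene that overlaps AT1G52695, held 17.03, 28.44 and 35.31 counts in 10 nM ABA and 1.038, 1.207 and 1.134 in mock (log2 3.66, adjusted p = 0.0072), and its call held in all 6 fits that left out 1 library. Calls of LEA18 (adjusted p from 0.066 to 0.24) and AT3G53040 (0.091 to 0.23) were lost whichever library was left out. That of AT4G36600 was lost without mock library 2 (0.11) or 10 nM ABA library 1 (0.080) or 2 (0.10). Of 68 lipid-transfer genes 6 were higher and 0 lower (8.82% called). AT2G37870 and AT3G22620 held in all 6 fits, and AT2G48130, AT3G53980, AT4G33550 and LTP4 were each lost in at least 1. Of 173 leucine-rich repeat kinase and receptor genes 0 were higher and 8 lower (4.62% called). Only AT1G05700 and AT5G49770 of these 8 were called in all 6 fits. The calls of AT1G07560, AT1G29740, RLP47, AT4G20450, AT5G49780 and AT5G59680 were each lost in at least 1 fit, at adjusted p up to 0.26. AT5G49770 held 23.85, 16.59 and 35.31 in 10 nM ABA and 105.9, 102.6 and 99.83 in mock (log2 -2.04, adjusted p = 0.0053). Of 64 genes counted as peroxidases by product name, 4 were higher and 5 lower (14.1% called, median log2 difference -0.03). Of the higher calls only that of AT2G39040 held in all 6 fits, and those of AT1G68850, DOX1 and AT5G14130 did not. Of the lower calls AT1G05240, AT1G05250 and Prx37 held in all 6, and AT4G26010 and AT5G24070 did not. The product name alone placed DOX1 here. DOX1 held 3477, 3329 and 3019 in 10 nM ABA and 1611, 2143 and 1753 in mock (log2 0.84, adjusted p = 0.012), a call lost without mock library 1 (adjusted p = 0.10) or 3 (0.064) or 10 nM ABA library 1 (0.061) or 2 (0.056), while Prx37 held 494, 405.3 and 476.7 in 10 nM ABA and 990.2, 932.9 and 865.5 in mock (log2 -1.02, adjusted p = 1e-04; called in all 6 fits). Of 159 genes counted as extensins or proline-rich by product name, 2 were higher (EULS3 and PELPK2) and AT1G26250 was lower (1.89% called). The product name alone placed EULS3 here. The 2 higher calls held in all 6 fits, and that of AT1G26250 was lost whichever library was left out (adjusted p from 0.055 to 0.21). Of 51 glutathione transferase genes 3 of the tau class were higher (GSTU8, GSTU24 and GSTU25) and GSTF14 was lower (7.84% called). Calls of GSTU8 and GSTU24 were lost when mock library 1 (adjusted p = 0.18 and 0.15), mock library 3 (0.080 and 0.098) or 10 nM ABA library 1 (0.078 and 0.14) was left out, and that of GSTU8 also without 10 nM ABA library 2 (0.13).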
